A study of Mus musculus with 2 samples.

Results

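Gamma delta T cells carry a T cell receptor made of a gamma and a delta chain in place of the alpha and beta chains of conventional CD4+ and CD8+ T cells. In the mouse many of them settle in tissues early in life with a preset program, and those of the type 17 kind respond to IL-1, IL-7, and IL-23, and release IL-17 soon after a challenge without prior priming. In immune glomerular injury they are known as an early source of IL-17A, the cytokine that draws neutrophils into the kidney. The cells described here are those that the authors' deposited annotation assigned to the gamma delta T cell cluster, 74 of 7314 kidney cells in 16 clusters. WT mice gave 46 of them and Vsir-/- mice gave 28.

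Both libraries came from the kidneys of C57BL/6 mice of 8 weeks with nephrotoxic serum nephritis (NTN), in which mice immunized with 200 μg of sheep IgG received sheep serum against the glomerulus 4 days later. The serum dose was 2 μl/g by the labels, while the methods of the study state a different one. One library was made from WT mice and one from mice that lack Vsir, which encodes VISTA, an inhibitory surface protein of myeloid and T cells, in all tissues. Liberase at 0.2 mg/ml was used to dissociate the kidneys (37 °C, 30 minutes), and transcripts were counted by droplet-based scRNA sequencing as unique molecular identifiers (UMIs). The number of mice in each library and the day of sampling were not given in the sources used here. With 1 library per genotype there was no biological replicate, so the genotypes were compared by size alone, and all intervals are 95% intervals of counting error only.

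The libraries differed in more than genotype. The labels describe the WT library as CD45+ sorted cells and the Vsir-/- library as all kidney cells, whereas the methods of the study give a CD45+ sort. The methods give only male mice, but Xist, which is transcribed from the inactive X chromosome of females, had 0 UMIs in the WT gamma delta T cells and 162 UMIs in the Vsir-/- cells. The Y-linked Ddx3y had 30 and 0 UMIs, and over the whole libraries Xist had 0 and 16405 UMIs and Ddx3y 1779 and 0. The sex of the mice, the sort, the library, and the genotype therefore cannot be told apart. The gene names also differed, because 136 genes carried one symbol in the WT library and another in the Vsir-/- library. A gene listed at 0 throughout a library may thus be present under another name, and counts of genes below are also given with these symbols joined. The libraries shared 5 cell barcodes, of which 0 belonged to gamma delta T cells.

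The WT gamma delta T cells held 280658 UMIs, with a median of 5378 UMIs and 2002 genes per cell. The Vsir-/- cells held 177249 UMIs, with a median of 6263 UMIs and 2201 genes per cell. The authors' cluster made up 0.841% of all WT cells (Clopper-Pearson interval, 0.616% to 1.12%) and 1.52% of all Vsir-/- cells (1.01% to 2.19%). Among the 3053 WT and 785 Vsir-/- cells of the T, NK, NKT, and ILC2 clusters, the shares were 1.51% (1.11% to 2.00%) and 3.57% (2.38% to 5.11%), and the NKT cluster among these held 94 WT and 0 Vsir-/- cells. Both shares were higher in the Vsir-/- library by size, and the intervals of the shares of all cells overlapped. The intervals cover the counting of cells in 1 library per genotype and not the spread between mice. Shares in these libraries also reflect the sort, whose part was not tested. They are shares of the named cluster, which held 17.6% of the WT and 62.6% of the Vsir-/- UMIs of Trdc, the delta chain constant region. A Trdc UMI was also found in 50 EM-like CD4+ and 46 EM-like CD8+ T cells of the WT library. In the Vsir-/- library these were 7 and 6 cells. The part of this difference in the shares was not tested.

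The cluster carried the transcripts of its name. Trdc, the constant region of the delta chain, had 837 UMIs per 1000000 UMIs (CPM; 734 to 951) in WT cells and 2138 CPM (1928 to 2365) in Vsir-/- cells. The next highest cluster was EM-like CD8+ T cells, with 390 and 223 CPM. Tcrg-C1, a constant region of the gamma chain, had 435 CPM (361 to 519) in WT cells and 750 CPM (628 to 889) in Vsir-/- cells. Cd163l1, which encodes the scavenger receptor SCART1, Blk, a Src family kinase used by type 17 gamma delta T cells, and Il7r, the IL-7 receptor α chain, were likewise highest in this cluster in both libraries. Blk had 257 and 305 CPM, against 143 and 38.1 CPM in B cells, the other cells that use this kinase. Rora, which encodes the nuclear receptor RORα, had 460 and 671 CPM and was exceeded in the WT library by ILC2, at 600 CPM. The cluster was defined from these same transcripts, so the levels describe it and are no test of it.

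**Figure D1:**
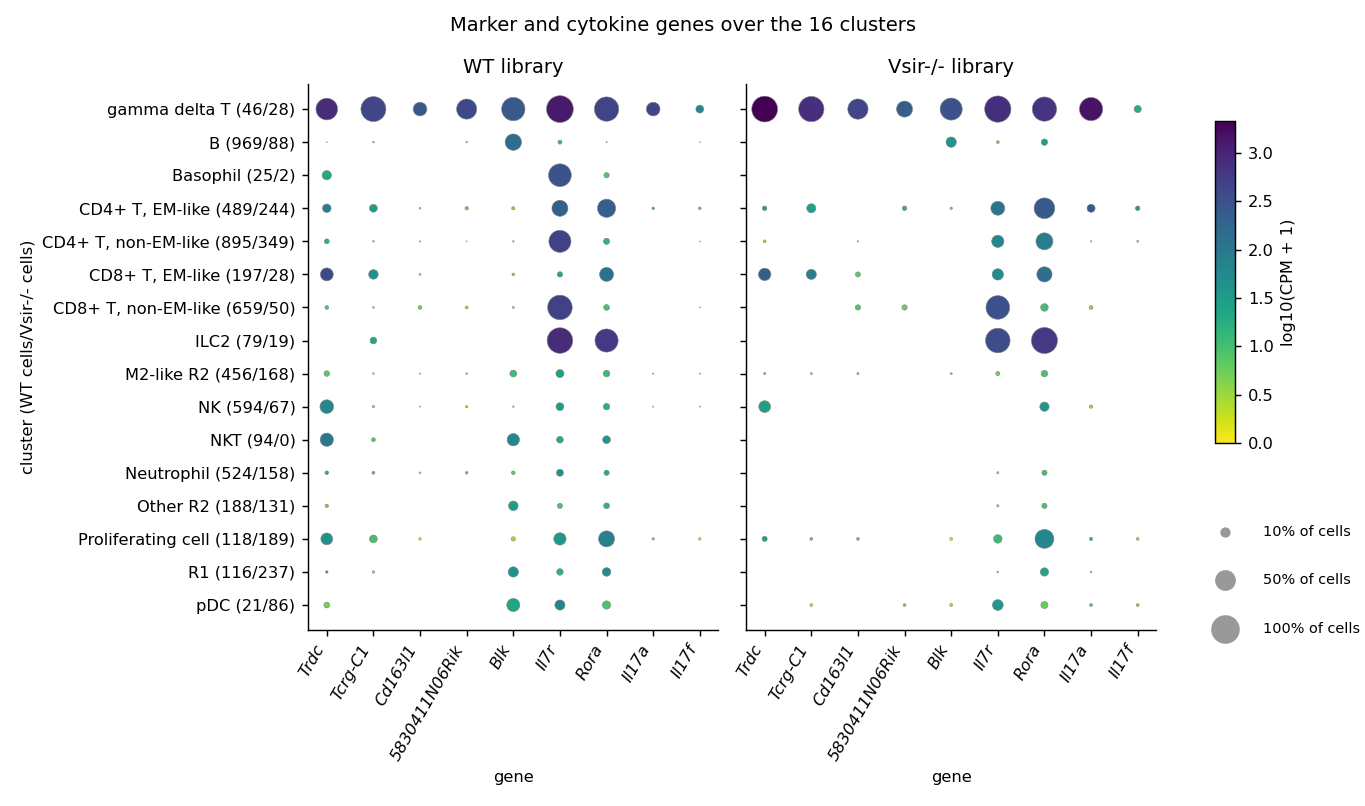
Marker transcripts in the 16 clusters of the WT (left) and Vsir-/- (right) libraries, where dot area is the percent of cells with a UMI and color is log10(CPM + 1). The gamma delta T cell row has the largest dots for Trdc, Tcrg-C1, and Cd163l1, with Trdc at 837 CPM in WT and 2138 CPM in Vsir-/- cells, and Il17a is also present in EM-like CD4+ T cells.

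Receptor transcripts were read cell by cell. All 74 cells had a UMI of Trdc or of a gamma constant region, and a gamma constant region was found in all but 1 cell of each library. Trdc itself was found in 30 WT cells (65.2%) and 26 Vsir-/- cells (92.9%). When each cell was thinned to 1000 UMIs, the shares were 37.0% (17 of 46; 23.2% to 52.5%) and 75.0% (21 of 28; 55.1% to 89.3%), with 0% in thinned B cells of both libraries, which should not transcribe it. In thinned neutrophils the shares were 1.19% (6 of 503) in WT and 0% (0 of 153) in Vsir-/- cells. The gap between the gamma delta T cells of the genotypes was also present at equal depth. In all, 16 WT cells and 2 Vsir-/- cells were named gamma delta T cells without a Trdc UMI. Trac, the constant region of the alpha chain, had 54 UMIs in 21 WT cells and 10 UMIs in 7 Vsir-/- cells, a log2 ratio of -1.71, or -0.18 in thinned cells. Of the cells without Trdc, 10 WT cells and 1 Vsir-/- cell held Trac. The authors' cluster was thus less uniform in the WT library, and values among cells with Trdc are given below for the genes described that fell under 2-fold there. Cd3d, Cd3e, Cd3g, and Cd247, the signaling chains shared by all T cells, had 210, 190, 400, and 77 UMIs in WT cells and 164, 100, 222, and 71 in Vsir-/- cells, while Cd4 had 1 and 2 UMIs, Cd8a 4 and 0, and Cd8b1 12 and 0, of which 10 lay in 1 cell.

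The gamma constant genes differed in how alike they were. The RefSeq sequences of Tcrg-C1 and Tcrg-C2 matched at 96.1% of 909 aligned bases, but only 14 of the 834 stretches of 91 bases in Tcrg-C1, and 14 of 310 in its last 400 bases, were shared with Tcrg-C2. Tcrg-C1 had 122 UMIs in WT and 133 in Vsir-/- cells, and Tcrg-C2 had 74 and 41. Tcrg-C4, which matched Tcrg-C1 at 69.1%, had 43 UMIs in WT cells and 41 in Vsir-/- cells, a log2 ratio of 0.60 for Vsir-/- over WT. Of the 12 gamma and delta genes in the file, 6 passed a filter of 20 UMIs, with a median of 0.69, and of the 7 genes of CD3 and the alpha beta receptor all passed, with a median of -0.08.

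Type 17 gamma delta T cells of the mouse fall into subsets that use different variable segments. Cells with the fetal receptor of Tcrg-V6 and Trdv4 typically carry SCART1 (Cd163l1), and those with Tcrg-V4 typically carry SCART2 (5830411N06Rik), whose gene lies on the same chromosome. Cd163l1 had 260 CPM in 12 WT cells and 434 CPM in 16 Vsir-/- cells. 5830411N06Rik had 392 CPM (322 to 472) in 26 WT cells and 220 CPM (157 to 301) in 10 Vsir-/- cells. The receptors thus leaned in opposite directions, with log2 ratios of 0.74 (0.26 to 1.22) and -0.82 (-1.40 to -0.29), neither of them past 2-fold.

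Counted as cells, 7 of 46 WT cells (15.2%; 6.34% to 28.9%) and 13 of 28 Vsir-/- cells (46.4%; 27.5% to 66.1%) held Cd163l1 without 5830411N06Rik. The reverse pattern was found in 21 WT cells (45.7%; 30.9% to 61.0%) and 7 Vsir-/- cells (25.0%; 10.7% to 44.9%). The intervals of the genotypes overlapped for both patterns. Both transcripts were found in 5 and 3 cells, and neither in 13 and 5 cells. After thinning, Cd163l1 was found in 6 WT and 10 Vsir-/- cells and 5830411N06Rik in 15 WT and 4 Vsir-/- cells, so the lean kept its direction at equal depth.

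The variable segments, which the 3′ chemistry captures poorly, were counted as well. Trdv4 had 16 UMIs (57.0 CPM) in 6 WT cells and 37 UMIs (209 CPM) in 11 Vsir-/- cells, a log2 ratio of 1.85 (0.99 to 2.82). Tcrg-V6 had 3 UMIs in 3 WT cells and 12 UMIs in 8 Vsir-/- cells. Trdv5, another delta segment, had 11 UMIs in 9 WT cells and 0 UMIs in Vsir-/- cells, where the whole library also had 0, and since gene names differed between the libraries this 0 cannot be read as a level. A UMI of Trdv4 or Tcrg-V6 was found in 7 WT cells (15.2%) and 13 Vsir-/- cells (46.4%). Tcrg-V4 was found in 2 cells of each genotype. Over all 74 cells, 12 of the 17 cells with Trdv4 and 10 of the 11 with Tcrg-V6 held Cd163l1, against 2 and 0 that held 5830411N06Rik. All 9 cells with Trdv5 held 5830411N06Rik, and 3 of them held Cd163l1. Of the 4 cells with Tcrg-V4, 3 held 5830411N06Rik and 3 held Cd163l1. Trdv4 and Tcrg-V6 thus lay mostly in cells with Cd163l1 and Trdv5 in cells with 5830411N06Rik, while Tcrg-V4 showed no such lean.

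**Figure D2:**
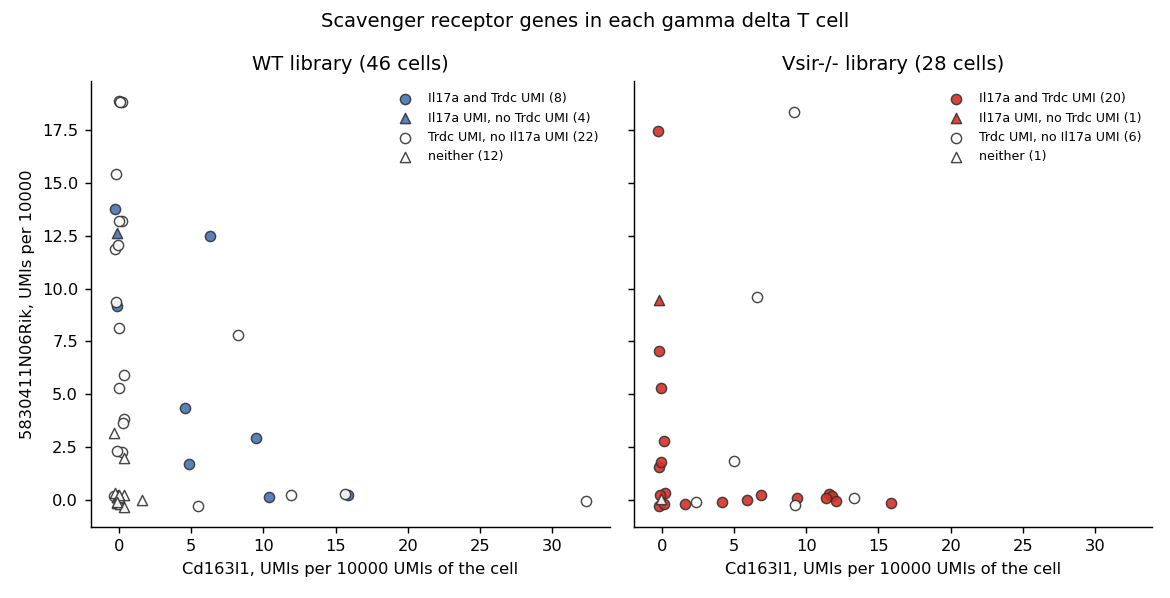
UMIs per 10000 of Cd163l1 (x) and 5830411N06Rik (y) in each gamma delta T cell of the WT (left) and Vsir-/- (right) libraries, with a small random shift so that cells at 0 can be seen. Filled symbols mark cells with an Il17a UMI and circles cells with a Trdc UMI; 7 WT and 13 Vsir-/- cells hold Cd163l1 alone, and 21 WT and 7 Vsir-/- cells hold 5830411N06Rik alone.

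Il17a, which encodes IL-17A, was higher in the Vsir-/- cells. It had 123 UMIs in 12 WT cells, or 438 CPM (364 to 523), and 259 UMIs in 21 Vsir-/- cells, or 1461 CPM (1289 to 1650), a log2 ratio of 1.73 (1.42 to 2.06). The WT cells with Il17a held 1 to 32 UMIs (median, 4.5), and the 3 richest held 32, 26, and 23, or 65.9% of the total. The WT cell with 26 had 0 UMIs of Trdc, Cd163l1, 5830411N06Rik, and Trac. The Vsir-/- cells with Il17a held 1 to 47 UMIs (median, 7), and the 3 richest held 47, 37, and 34, or 45.6%. Without the richest cell of each library the levels were 338 and 1260 CPM, and the genotypes kept their order. Without the WT cell with the most B cell marker UMIs, which also held Il17a, the log2 ratio was 2.02.

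More cells held the transcript, and not only more UMIs per cell. Il17a was found in 26.1% of WT and 75.0% of Vsir-/- gamma delta T cells. At 1000 UMIs per cell the shares were 10.9% (5 of 46; 3.62% to 23.6%) and 42.9% (12 of 28; 24.5% to 62.8%), with 0% in the 947 and 72 thinned B cells, which should lack it. In EM-like CD4+ T cells the unthinned shares were 0.82% and 9.02%, and the level was 29.3 and 256 CPM, a log2 ratio of 3.12. Gamma delta T cells held 57.7% of all Il17a UMIs of the WT library and 35.7% of those of the Vsir-/- library, against 38.5% and 55.6% for EM-like CD4+ T cells. The share of Il17a that lay in the gamma delta cluster was thus lower in the Vsir-/- library although the level per gamma delta T cell was higher.

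The difference was examined within the classes of cells. In cells with Cd163l1 alone, Il17a had 11 UMIs in WT and 95 in Vsir-/- cells, a log2 ratio of 2.27 (1.42 to 3.38). In cells with 5830411N06Rik alone it had 25 and 87 UMIs, a log2 ratio of 2.79 (2.15 to 3.51). The few cells with both receptors went the other way, with 57 UMIs in 5 WT cells and 0 UMIs in 3 Vsir-/- cells. Taken over all cells with Cd163l1, with or without 5830411N06Rik, the log2 ratio was accordingly 0.24 (-0.22 to 0.72), and over all cells with 5830411N06Rik it was 1.09 (0.64 to 1.55). Among cells with Trdc it was 1.41 (1.07 to 1.78). These sums rest on few WT cells. Of the 68 WT UMIs in cells with Cd163l1, 32 and 18 lay in 2 cells, and without the 2 richest cells of each library the levels were 269 and 564 CPM, a log2 ratio of 1.05. In the cells with Cd163l1 alone, 10 of the 11 WT UMIs lay in 1 cell, and in those with 5830411N06Rik alone, 23 of 25. The ratio within a class thus depended on single cells, and it was above 0 in each of these groups but that of both receptors.

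**Figure D3:**
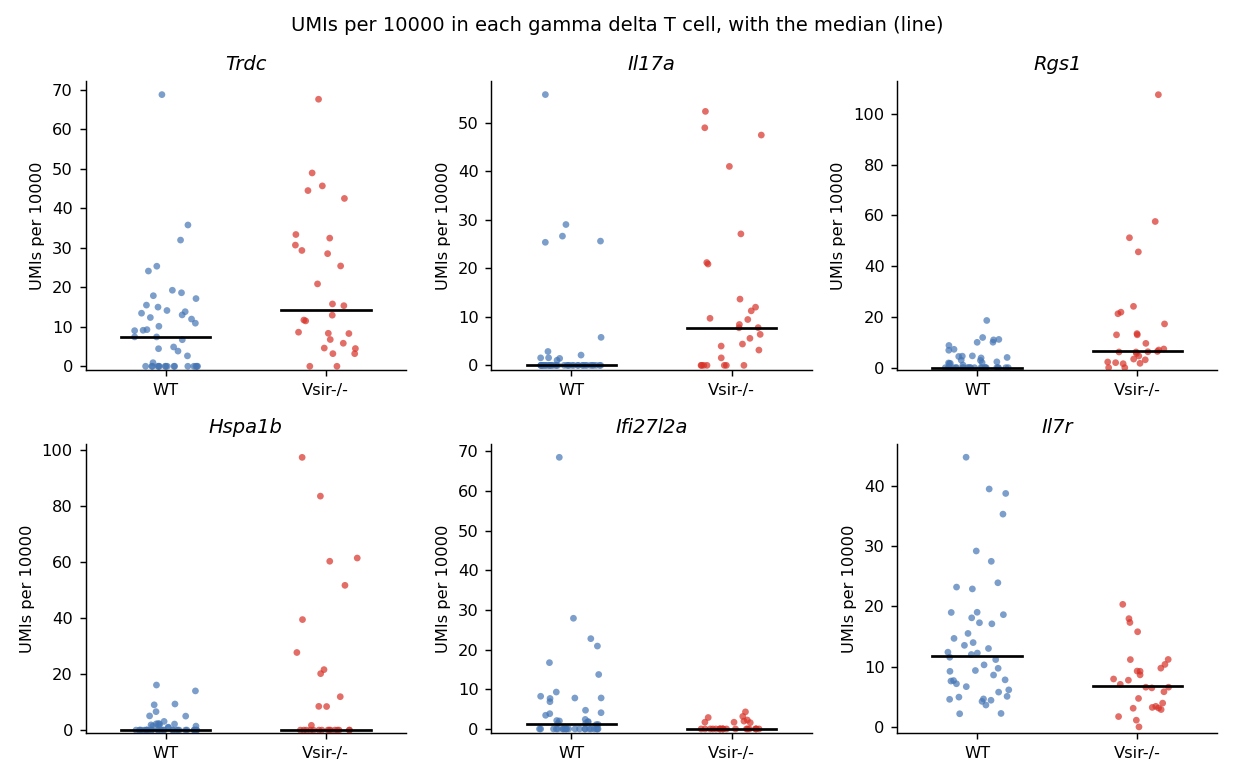
UMIs per 10000 of 6 transcripts in each of the 46 WT and 28 Vsir-/- gamma delta T cells, 1 point per cell with a line at the median. The medians of Il17a were 0 and 7.76 and those of Trdc 7.44 and 14.1, while the ranges of the genotypes overlapped for all 6 transcripts.

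Il17f, the neighbor of Il17a on chromosome 1, did not move with it. It had 16 UMIs (57.0 CPM) in 4 WT cells, 11 of them in 1 cell, and 3 UMIs (16.9 CPM) in 2 Vsir-/- cells, a log2 ratio of -1.57 (-4.17 to 0.05), and in EM-like CD4+ T cells the log2 ratio was 2.38. In gamma delta T cells Il17f lay under the filter of 20 UMIs, and the interval of its ratio held 0. Il22 had 3 and 0 UMIs. Of the 24 effector cytokines on a wider list, 6 passed the filter of 20 UMIs, and Il17a alone was at least 2-fold higher (median, -0.16). Among cells with Trdc, which held all 16 and 3 UMIs of Il17f, its log2 ratio was -2.28 (-4.88 to -0.66). Without the richest cell of each library the levels of Il17f were 18.4 and 5.85 CPM, which rest on few UMIs. RORα, the product of Rora, binds DNA at sites built on the hexamer AGGTCA, and the windows around the start sites of both IL-17 genes are printed here with it in capitals, because these neighbors had ratios on opposite sides of 0. In the RefSeq windows of 250 bases before to 50 bases after the start (GRCm38.p6), searched on both strands as AGGTCA or TGACCT, 16.3% of 32851 promoters held the hexamer. Of the type 17 genes described next, 26 of 32 had a window and 8 of these (30.8%) held it. A match is a description of the letters and not a site of binding.
Il17a, chr1:20730655-20730954, plus strand: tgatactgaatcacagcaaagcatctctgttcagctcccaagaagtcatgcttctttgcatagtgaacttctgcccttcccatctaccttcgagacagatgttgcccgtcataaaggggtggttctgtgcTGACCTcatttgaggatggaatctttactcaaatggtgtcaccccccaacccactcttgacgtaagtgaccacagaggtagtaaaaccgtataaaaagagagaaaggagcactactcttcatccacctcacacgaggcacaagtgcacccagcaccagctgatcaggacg
Il17f, chr1:20784221-20784520, minus strand: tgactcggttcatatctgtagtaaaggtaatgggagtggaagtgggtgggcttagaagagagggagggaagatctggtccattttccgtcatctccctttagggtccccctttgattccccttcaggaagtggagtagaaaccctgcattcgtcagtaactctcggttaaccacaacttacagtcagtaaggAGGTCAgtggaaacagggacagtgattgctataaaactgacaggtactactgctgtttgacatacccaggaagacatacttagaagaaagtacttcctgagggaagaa

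Of the type 17 list, which holds the regulators, receptors, and surface proteins of this program, 28 of 32 genes in the file passed the filter of 20 UMIs. Of these, 3 were at least 2-fold higher (Il17a, Sox13, and Batf), 2 were at least 2-fold lower (Il17re and Il23r), and 18 lay above 0, with a median log2 ratio of 0.21 against -0.00 over all genes. Among all genes with at least 20 UMIs in these cells, 5.98% of 3379 were at least 2-fold higher in Vsir-/- cells and 6.6% at least 2-fold lower, which is the background for this and the later lists. With the symbols joined, these shares were 5.44% and 6.04% of 3363 genes. Sox13, a transcription factor of type 17 gamma delta T cells, had 14 and 24 UMIs and a log2 ratio of 1.42 (0.43 to 2.50). Among cells with Trdc the ratios of Sox13, Batf, and Il23r were 0.71, 0.82, and -0.78, so that of the 5 genes Il17a and Il17re were past 2-fold there. In thinned cells the ratio of Batf was -0.021. Maf, another regulator of the program, had 157 and 136 UMIs and a log2 ratio of 0.46. The list's median thus lay near that of all genes, and Il17a had the largest ratio of the 28.

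The receptors of the program did not move together, and Cd163l1 leaned higher, as given above. Il17re, a chain of the receptor for IL-17C, had 38 UMIs in WT and 10 in Vsir-/- cells, a log2 ratio of -1.21 (-2.43 to -0.23), or -0.72 in thinned cells. Il23r, the receptor for IL-23, had 16 and 4 UMIs, and its interval reached from -3.38 to 0.30. Il1r1, the receptor for IL-1, had 32 and 19 UMIs (log2 ratio, -0.07), and Ccr6, a chemokine receptor of type 17 cells, had 38 and 28 (0.23). Cxcr6, which binds CXCL16, had 277 and 153 UMIs (-0.19), and Actn2 and S100a4 had log2 ratios of 0.14 and 0.05. These 5 differed by less than 2-fold.

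Type 1 transcripts were scarce in the cluster. Ifng, which encodes IFN-γ, had 2 UMIs in 1 WT cell and 3 UMIs in 3 Vsir-/- cells, a log2 ratio of 1.15 with an interval of -1.88 to 4.83, so a difference was not detectable at this depth. Tbx21, the master regulator of the type 1 program, had 2 and 3 UMIs, and Eomes had 2 and 0. Only 6 of 25 genes of the type 1 list passed the filter, of which Hopx was at least 2-fold higher and Nkg7, a granule protein of cytotoxic cells, at least 2-fold lower, with a median of 0.36 that turned to -0.77 with a minimum of 10 UMIs and to -0.32 with none. Nkg7 had 35 and 7 UMIs, a log2 ratio of -1.58, but the ratio was -0.66 among cells with Trdc and turned to 1.56 in thinned cells, where 2 cells of each genotype still held it. Hopx, a transcription cofactor of effector T cells, had 28.5 and 243 CPM, but 31 of its 43 Vsir-/- UMIs lay in 1 cell, and without the richest cell of each library its levels were 25.5 and 71.3 CPM. Among type 2 genes, 3 of 13 passed the filter and Il4, Il5, and Il13 had 0 UMIs in both genotypes. Gata3, a regulator of type 2 and of early T cells, had 178 CPM (50 UMIs) in WT and 67.7 CPM (12 UMIs) in Vsir-/- cells, a log2 ratio of -1.35 (-2.44 to -0.47). Among cells with Trdc it had 22 and 12 UMIs and a log2 ratio of -0.90 (-2.07 to 0.16), under 2-fold, and in thinned cells the ratio was -0.13.

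Part of the WT cells without a subset marker held these other transcripts. The 13 WT cells with neither Cd163l1 nor 5830411N06Rik had a median of 8973 UMIs, and 12 of them also lacked Trdc. They held 33 of the 54 Trac UMIs, 30 of the 44 Lck UMIs, and 27 of the 50 Gata3 UMIs of the WT cluster. They also held Tcrg-C1 in 11 cells, Il7r in 13 cells, and 30 Il17a UMIs in 3 cells. Trdc was found in 4 of the 5 Vsir-/- cells with neither receptor. In cells with Cd163l1 alone it was found in 6 of 7 WT and 13 of 13 Vsir-/- cells. In cells with 5830411N06Rik alone these counts were 18 of 21 and 6 of 7. Only 1 Vsir-/- cell lacked all 3 of Cd163l1, 5830411N06Rik, and Trdc. Cells of this kind were thus more frequent in the WT cluster, where they held most of its Trac, Lck, and Gata3 UMIs.

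Some transcripts of antigen receptor signaling were lower. Of the T cell signaling list, 15 of 16 genes passed, 0 were at least 2-fold higher and 4 at least 2-fold lower (Lck, Fcer1g, Cd2, and Lcp2), with a median of -0.69. Medians of other clusters, here and below, cover the list genes that passed the filter in that cluster, so the gene sets can differ. The median was -0.78 in ILC2, -1.44 in B cells, and -2.52 in neutrophils, against -0.12 in EM-like CD4+ T cells and -0.38 in NK cells. The list of CD3 and the alpha beta receptor, genes of T cells, also had medians of -2.71 in B cells and -3.29 in neutrophils. The signaling medians of these 2 clusters thus cannot be read as signaling of those cells. Lck, the kinase that starts receptor signaling, had 44 UMIs in 15 WT cells (157 CPM) and 6 UMIs in 3 Vsir-/- cells (33.9 CPM), a log2 ratio of -2.11 (-3.73 to -0.98), and in EM-like CD4+ T cells the ratio was 0.06. Of these Lck UMIs, 37 of 44 in WT cells and 2 of 6 in Vsir-/- cells lay in cells without Trdc, and among cells with Trdc, Lck had 7 and 4 UMIs, a log2 ratio of -0.78 (-3.07 to 1.12). Lcp2, an adaptor, had 46 and 11 UMIs (log2 ratio, -1.35), and Cd2, an adhesion receptor, had 27 and 6 (-1.42, or -0.59 among cells with Trdc). Fcer1g had 17 and 3 UMIs, but 15 of the 17 lay in 1 WT cell, and without the richest cell of each library its ratio was 0.67. Of the 4 genes, Lcp2 alone was thus past 2-fold both among cells with Trdc and without the richest cells. Zap70 and Fyn, kinases of the same pathway, had log2 ratios of 0.09 and 0.02, and Ptprc, which encodes CD45, had -0.69.

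Cytokine receptors leaned the same way. Of 28 genes, 17 passed, 0 were at least 2-fold higher and 4 at least 2-fold lower (Il18r1, Ifngr1, Il17re, and Il23r), with a median of -0.53. The median was -0.53 in ILC2 (14 genes) and -0.60 in neutrophils (21 genes) as well. It was -0.06 in EM-like CD4+ T cells (25 genes), -0.21 in NK cells (21 genes), and -0.31 in B cells (15 genes). A lean of this size was thus also found in other clusters, though over gene sets that differ. Il18r1, the receptor for IL-18, had 417 CPM (117 UMIs) in WT and 175 CPM (31 UMIs) in Vsir-/- cells, a log2 ratio of -1.24 (-1.87 to -0.67), and Ifngr1, a chain of the IFN-γ receptor, had 634 and 293 CPM, a log2 ratio of -1.10, or -0.37 in thinned cells. Il7r had 1258 CPM in all 46 WT cells and 745 CPM in 27 of 28 Vsir-/- cells, a log2 ratio of -0.75 (-1.06 to -0.46). Il2rg, the common γ chain with which the IL-7 receptor pairs, had a log2 ratio of -0.00. In EM-like CD4+ T cells the ratios of Il18r1 and Ifngr1 were -0.03 and -0.08. Of the 12 genes of chemokine receptors and homing that passed, 1 was at least 2-fold higher (Ccr10, with 8 and 12 UMIs, and a ratio of 0.51 among cells with Trdc), with a median of -0.16.

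Some transcripts of activation were higher. Of the residency and activation list, 11 of 25 genes passed, of which 4 were at least 2-fold higher (Rgs1, Nr4a1, Nr4a2, and Pdcd1) and 1, the deleted Vsir, was lower, with a median of 0.53. Over the genes that passed in each cluster, the median was 0.81 in EM-like CD8+ T cells (15 genes) and 0.21 in ILC2 (10 genes). It was 0.19 in EM-like CD4+ T cells (23 genes), -0.03 in NK cells (18 genes), and -0.50 in B cells (15 genes). Rgs1, which dampens chemokine signals in tissue T cells, had 299 CPM (84 UMIs in 22 cells) in WT and 1568 CPM (278 UMIs in 26 cells) in Vsir-/- cells, a log2 ratio of 2.38 (2.03 to 2.76). It was 2.34 among cells with Trdc and 0.98 in EM-like CD4+ T cells. Pdcd1, the inhibitory receptor PD-1, had 103 CPM (29 UMIs) and 254 CPM (45 UMIs), a log2 ratio of 1.29 (0.59 to 2.02), whereas in EM-like CD4+ T cells it was -0.69. In gamma delta T cells with 5830411N06Rik, Pdcd1 went the other way, with 6 UMIs in WT and 0 in Vsir-/- cells. It had 221 and 438 CPM in cells with Cd163l1 alone and 129 and 338 CPM in cells with neither. Cd69, an early activation marker, had 199 and 175 UMIs (0.48), and Icos, a costimulator, had 73 and 66 (0.52). Vsir itself had 63 UMIs in 33 WT cells, or 224 CPM (172 to 287), and 1 UMI in 1 Vsir-/- cell, a log2 ratio of -4.74 (-10.64 to -2.78), which matched the labels of the libraries.

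Immediate early and stress transcripts, which are also induced by dissociation of tissue, had the largest median of the 13 lists plotted. All 18 genes of the list passed, 10 were at least 2-fold higher, 0 at least 2-fold lower, and 16 lay above 0, with a median of 1.42. The median was 1.35 in EM-like CD4+ T cells and 0.97 in NK cells but -0.08 in B cells. Hspa1b, an inducible heat shock protein, had 153 CPM (43 UMIs) in WT and 1467 CPM (260 UMIs) in Vsir-/- cells, a log2 ratio of 3.25, and Hspa1a had a ratio of 2.67. Nfkbia, an inhibitor of NF-κB that is also its target, had 93 and 214 UMIs (1.86), and Jun, a subunit of AP-1, had 194 and 440 (1.84). Egr1 went the other way, with 29 and 14 UMIs (-0.36). The Nr4a genes of the activation list belong to the same class of rapidly induced genes, and Nr4a1 is on both lists.

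**Figure D4:**
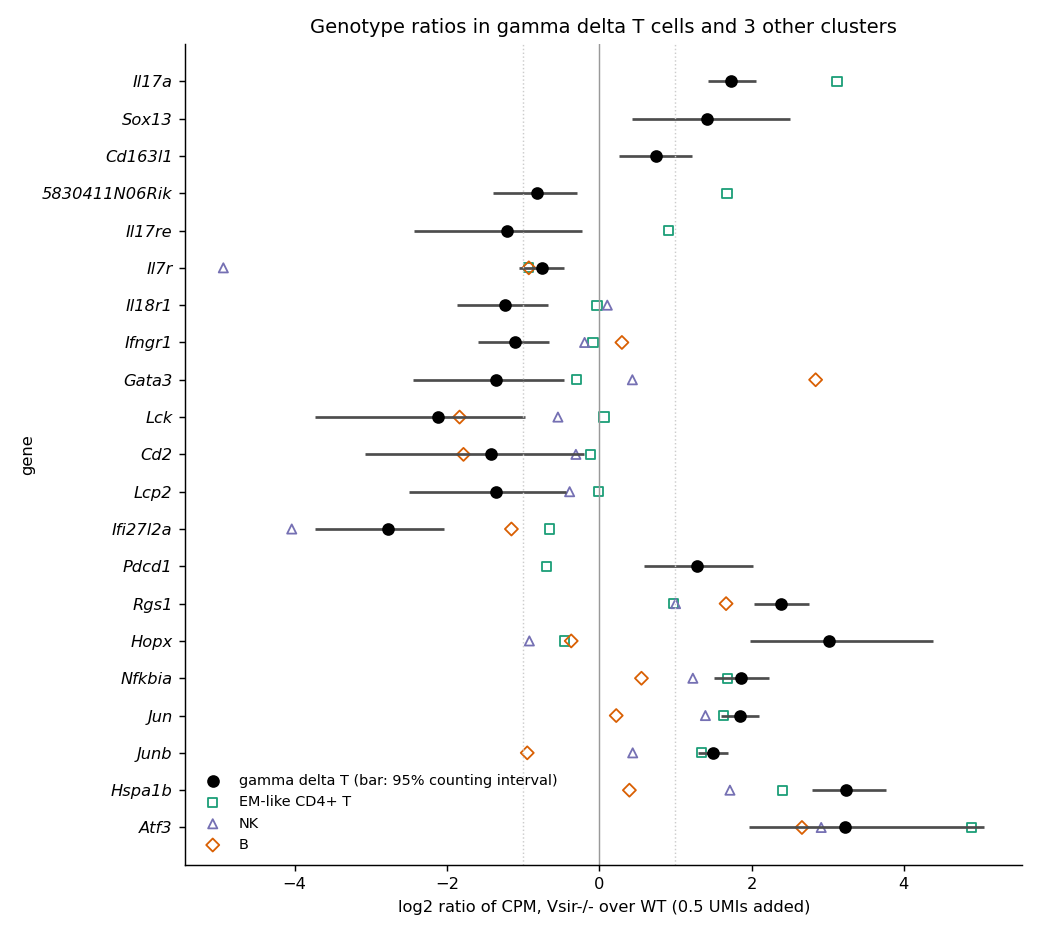
Log2 ratio of CPM, Vsir-/- over WT, for 21 genes in gamma delta T cells (points with 95% counting intervals) and, where at least 20 UMIs were counted, in EM-like CD4+ T cells, NK cells, and B cells. Il17a lies at 1.73 and Rgs1 at 2.38, Lck at -2.11 and Il18r1 at -1.24, while in EM-like CD4+ T cells Lck and Il18r1 lie at 0.06 and -0.03.

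Transcripts of other cells moved with genotype. The 32 tubule markers summed to 107 CPM (30 UMIs) in WT gamma delta T cells and 2437 CPM (432 UMIs) in Vsir-/- cells, led by Gpx3 with 1 and 95 UMIs, and the same sums were 166 and 4258 CPM in EM-like CD4+ T cells. Each Vsir-/- cell held 5 to 36 tubule UMIs and each WT cell 0 to 3. Endothelial and stromal markers summed to 28.5 and 333 CPM. B cell markers summed to 748 and 609 CPM, led by Cd74, with 126 of the 210 WT UMIs in 1 cell, and myeloid markers to 513 and 587 CPM, led by Cst3. NK markers summed to 64.1 and 11.3 CPM and ILC2 markers to 235 and 95.9 CPM, led by Gata3. The part of these transcripts in the differences above was not tested.

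The medians of metabolic lists lay under 2-fold. Of the respiratory chain, 77 of 86 genes passed, 8 were at least 2-fold higher (5 with symbols joined) and 64 lay above 0, with a median of 0.34, and the medians were 0.29 in EM-like CD4+ T cells and in NK cells and 0.96 in B cells. Genes of mitochondrial DNA had a median of -0.10 over 12 genes, fatty acid metabolism 0.32 over 14 genes, and glycolysis 0.02 over 13 genes. Only 4 of 19 cell cycle genes passed the filter, with a median of 0.65.

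**Figure D5:**
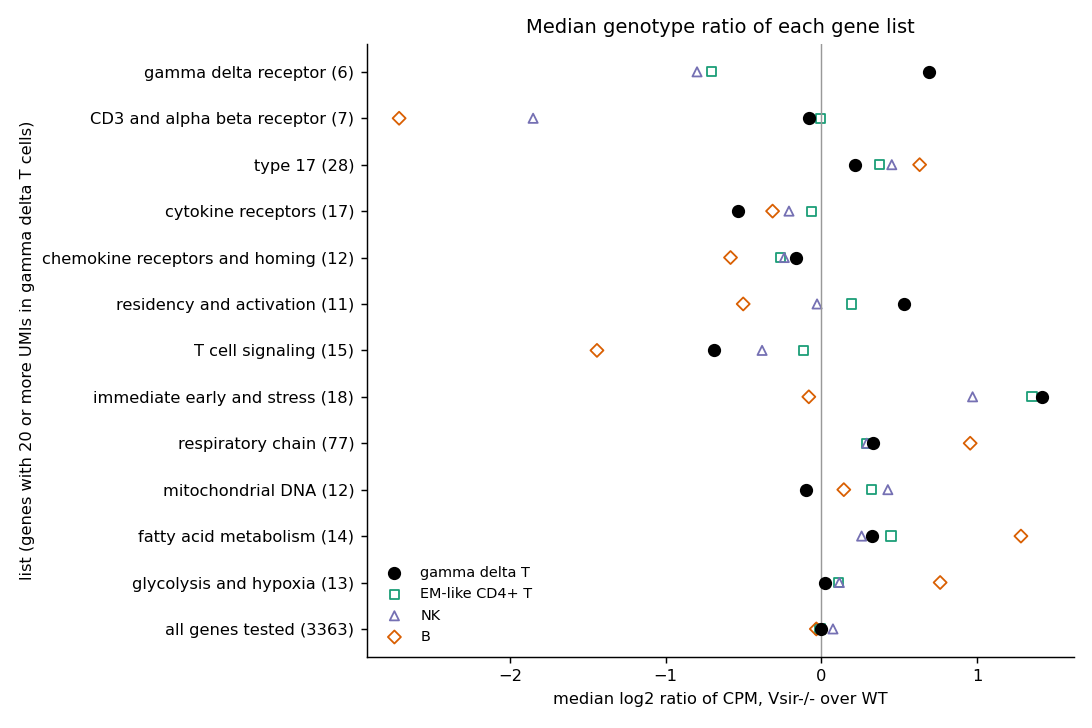
Median log2 ratio of CPM, Vsir-/- over WT, for 13 gene lists in gamma delta T cells, EM-like CD4+ T cells, NK cells, and B cells. Each median covers the list genes with at least 20 UMIs in that cluster, so the gene sets differ between clusters. Symbols were joined in gamma delta T cells, and genes listed at 0 in a whole library were left out. In gamma delta T cells the medians ran from -0.69 for T cell signaling to 1.42 for immediate early and stress genes, and the stress list was at -0.08 in B cells.

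Among single genes with at least 50 UMIs, several of the largest differences as deposited were names and not levels. Aes and Tle5, the old and new symbols of 1 gene, stood among the 10 lowest and the 10 highest, and joined they had 160 UMIs in WT and 86 in Vsir-/- cells, a log2 ratio of -0.23. Usmg5 with Atp5md, Minos1 with Micos10, and 2010107E04Rik with Atp5mpl were other such pairs, with joined ratios of 0.61, 0.47, and 0.24. Gpx3 and Fxyd2, both tubule transcripts, and Spp1, with 0 and 112 UMIs, were among the highest. Of the other genes, Ifi27l2a, an interferon-induced gene, had 559 CPM (157 UMIs) in WT and 79.0 CPM (14 UMIs) in Vsir-/- cells, a log2 ratio of -2.78 (-3.73 to -2.03), and it was -4.04 in NK cells and -0.66 in EM-like CD4+ T cells. Camk4, a calcium-dependent kinase of T cells, had 44 and 6 UMIs (-2.11). With symbols joined, Hbegf, a growth factor of the EGF family, had 7 and 45 UMIs (3.26), Rbpj, the transcription factor downstream of Notch, had 17 and 40 (1.87), and Lmo4 had 128 and 26 (-1.61, or -0.58 among cells with Trdc).

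Against EM-like CD4+ T cells, ILC2, and NK cells, the cluster was marked by type 17 genes in both genotypes. At least 4-fold differences in both libraries were found over EM-like CD4+ T cells for 0.561% of 7130 genes (higher) and 1.32% (lower), over ILC2 for 2.07% of 2319 and 1.16%, and over NK cells for 1.88% of 4475 and 2.99%. Over EM-like CD4+ T cells, 12 of 29 type 17 genes were higher, among them Il17a (log2 ratio, 3.90 in WT and 2.51 in Vsir-/-) and Il1r1 (4.06 and 4.05), and 16 of 25 type 1 genes were lower, among them Ccl5 (-4.75 and -5.48). Il7r was higher by 2.58 and 2.76, and Blk by 6.25 and 6.46. Over ILC2, 11 of 22 type 17 genes and 4 of 6 genes of the CD3 and alpha beta receptor list (Cd3d, Cd3e, Cd3g, and Cd247) were higher, and 6 of 7 type 2 genes were lower, among them Gata3 and Areg. Over NK cells, 19 of 24 type 17 genes were higher and 17 of 22 type 1 genes lower. The clusters were made from these genes, so the counts are a description of them.

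The 15 genes most enriched over all other cells in both libraries held the receptor genes and the type 17 genes named above, and other genes as well. Cd163l1 was enriched by 7.58 and 7.64 on the log2 scale, 5830411N06Rik by 7.63 and 7.17, and Tcrg-C1 by 6.15 and 7.28. Trdc was enriched by 4.63 in WT and 7.44 in Vsir-/- cells, and gamma delta T cells held 17.6% and 62.6% of its UMIs in these libraries. A larger part of the WT Trdc UMIs, 24.0%, lay in EM-like CD8+ T cells. The list also named Abi3bp (60 and 37 UMIs), Ly6g5b (50 and 44), Acsbg1 (32 and 31), an acyl-CoA synthetase, Tnfrsf25 (37 and 27), the receptor for TL1A, and Podnl1 (39 and 31). Their UMIs were of the same order in both genotypes.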

How the data were processed

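Kidney cells of 1 WT and 1 Vsir-/- library were analysed. According to the submitters' processing notes, the authors used Cell Ranger (version 3.1.0), R (version 4.0.3), and Seurat (version 3.2.3), with build mm9. By the methods of the study, mitochondrial UMIs were limited to 10% per cell. The minimum was 200 UMIs for a cell and 5 cells for a gene. The deposited values are UMI counts of each gene in each cell and were not normalized. The cell table adds cluster names and UMAP coordinate scores, both of which the authors made in Seurat. The cluster names were used here and the UMAP scores were not. The deposited percent of mitochondrial UMIs matched the matrix within 0.001 in all 7314 cells and served for the alternative of 5%. No removal of doublets is given in the sources used here, and no caller was run, so doublets may remain.

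Counts were summed per cluster and library and divided by all UMIs of the same cells (CPM). Log2 ratios are of CPM with 0.5 UMIs added, and a gene needed 20 or more UMIs in the cluster to enter. Levels have exact Poisson, shares Clopper-Pearson, and ratios exact conditional intervals, all 95%, and they cover counting error only. The intervals of levels and ratios treat each UMI as an independent draw, so they leave out the spread between cells as well as between mice. No p-value was computed. A gene counted as higher or lower past 2-fold between genotypes and past 4-fold between clusters. Cells were thinned to 1000 UMIs without replacement (seed 1), and shallower cells were left out. The steps were tested on simulated data. Some genes that the rule below names are not reported here. The cells and gene lists were chosen with earlier results of these data known. Named genes are list genes counted 10 or more times in the cluster, the 10 highest and 10 lowest ratios and the 15 most enriched genes that had 50 or more UMIs, Vsir, and the leading markers of other cells. The sex-linked genes, the cell classes, and the ranking with symbols joined were chosen after values were seen. Statistics used scipy 1.17.1, alignments Biopython 1.88, figures matplotlib 3.10.9, and tables pandas 2.3.3 and numpy 2.4.6 under Python 3.11.15, with RefSeq for older symbols and sequences. Coordinates of GRCm38.p6 were not mixed with those of the files, which hold none.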

Additional observations from a re-analysis of the deposited data

Results flagged for a closer look

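Of the named genes, 262 were screened in gamma delta T cells and EM-like CD4+ T cells, and 2 were past 2-fold in opposite directions, Vsir-/- over WT. Trdc had a log2 ratio of 1.35 in gamma delta T cells (0.64 among those with a Trdc UMI) and -1.87 in EM-like CD4+ T cells. Within the classes of gamma delta T cells its direction was not constant. It was 0.30 (-0.02 to 0.64) with Cd163l1 alone and -0.52 (-1.15 to 0.05) with 5830411N06Rik alone. With both receptors it was 0.19, and with neither 6.87, from 2 WT and 94 Vsir-/- UMIs. Trdv4, a delta variable segment, had a log2 ratio of 1.85 in gamma delta T cells and -2.58 in EM-like CD4+ T cells. Trdc is a marker of the gamma delta cluster, there was 1 library per genotype, and the difference was not tested.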

How the results depend on the processing

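The deposited counts rest on 46 and 28 cells and 1 library per genotype, so values with few UMIs, Ifng above all, are limited by depth, and sex, sort, and annotation cannot be told apart from genotype. No paired analysis was possible because each group had 1 library. Setting aside cells with UMIs of other cell types gave no value, since it left 9 WT and 0 Vsir-/- cells, and thinning left no type 1 gene past the filter. The log2 ratio of Il17a kept its direction under the 9 alternatives that gave it a value, from 1.41 in cells with Trdc only to 2.02. The number of genes at least 2-fold higher, 202 as reported, was 48 in thinned cells, 516 with a minimum of 10 UMIs, 60 with 50, and 2803 with none. The number at least 2-fold lower, 223 as reported, was 34, 579, 52, and 1614. The type 17 median of 0.21 was -0.011 in thinned cells and 0.092 with no filter, while the type 1 median of 0.36 was 0.20 at 5% mitochondrial UMIs or less, 0.50 with cells weighted equally, -0.77 with 10 UMIs, and -0.32 with no filter. Thinning lowered the share of cells with Trdc from 65.2% to 37.0% in WT and from 92.9% to 75.0% in Vsir-/- cells, and that with Il17a from 26.1% to 10.9% and from 75.0% to 42.9%. Of the named genes, thinning reversed Batf to -0.021, Ccr10 to -0.13, Nkg7 to 1.56, and Pcna to -0.021, and Fcer1g was 0.67 without the cell with the most UMIs and 0.44 in cells with Trdc. The thinned sums hold fewer UMIs and fewer genes past the filter by construction, and the other causes were not tested.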
